A study of Mus musculus with 20 samples.

Results

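The genes described here are 8 that act on meiotic chromosomes in the testis: Spo11, Dmc1, Sycp1, Sycp2, Sycp3, Hormad1, Rec8 and Smc1b. They were followed in whole testes of mice after a brief heat shock. The members were every probe set annotated to one of these genes and to no other gene. That gave 9 probe sets, 2 for Dmc1 and 1 for each of the others, of 34945 single-gene probe sets for 18193 genes on the chip. Testis RNA of inbred C57BL/6 and AKR/N males aged 8 weeks was hybridised to Affymetrix mouse expression chips, where several short probes together report a transcript. Each strain had untreated controls and testes collected 8, 10, 12 and 24 h after the animals' exposure to 43 °C for 15 min, which gave 10 groups of 2 arrays and 20 arrays in all. No transgene or mutation was named for either strain, and the untreated groups carry no time of their own, so heat and time of sampling cannot be told apart in comparisons with them. Nothing states that replicate arrays stem from different animals, so the p-values below weigh differences against a spread between samples that could be technical only.

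Meiosis makes haploid cells, and in the male it runs continuously inside the seminiferous tubules of the adult testis. In its long prophase, cohesin complexes hold sister chromatids on a protein axis, SPO11 cuts the DNA, the recombinase DMC1 pairs the cut ends with the homologous chromosome, and the synaptonemal complex zips the homologues together. Spermatocytes are among the germ cells most sensitive to heat. The genes are known mainly for their roles in spermatocytes, so in RNA of the whole organ fewer spermatocytes and less RNA per spermatocyte cannot be told apart.

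The start-site sequences show which members carry letters that are often discussed for germline genes. RefSeq's promoter table for GRCm38.p6 held 7 of the 8 members. In the 250 bases before the annotated start, the E-box letters CACGTG, read by MAX and its partners, were present in Sycp1, Sycp3 and Hormad1, that is 3 of 7 members, against 6.02% of the 32817 windows in the table. The letters GCGGGAA or their reverse complement, the core read by E2F proteins including the germline gene repressor E2F6, were present in Sycp3, Hormad1 and Smc1b, against 3.82% of windows. The cAMP response element TGACGTCA was in 0 of 7 members and in 1.55% of windows. The X-box, the site of RFX factors, was searched as GTTGC and GCAAC, which lay 3 or 4 bases apart in Smc1b alone among the members, against 0.347% of windows. E-box and response element read the same on both strands, as does the X-box apart from the bases between its GTTGC and GCAAC. None of the matches overlapped another. Each member was read in the first window listed for it, while the shares count every distinct window in the table. These letters were chosen after the sequences had been seen, and a match describes the window and not a bound site. The stretches of 140 bases that end at the start site follow for the 4 members with a match there, in lower case with the matched letters in capitals.
Sycp1 (chr3:102936101-102936240, reverse strand): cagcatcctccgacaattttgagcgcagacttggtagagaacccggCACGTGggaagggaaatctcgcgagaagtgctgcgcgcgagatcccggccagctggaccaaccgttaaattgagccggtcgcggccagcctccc
Sycp3 (chr10:88459447-88459586, forward strand): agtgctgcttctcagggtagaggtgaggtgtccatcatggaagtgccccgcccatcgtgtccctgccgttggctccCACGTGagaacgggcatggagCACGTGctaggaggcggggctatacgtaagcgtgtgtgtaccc
Hormad1 (chr3:95559537-95559676, forward strand): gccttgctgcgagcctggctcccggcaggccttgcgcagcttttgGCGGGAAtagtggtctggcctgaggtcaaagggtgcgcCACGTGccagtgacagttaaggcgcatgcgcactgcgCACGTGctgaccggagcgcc
Smc1b (chr15:85131958-85132097, reverse strand): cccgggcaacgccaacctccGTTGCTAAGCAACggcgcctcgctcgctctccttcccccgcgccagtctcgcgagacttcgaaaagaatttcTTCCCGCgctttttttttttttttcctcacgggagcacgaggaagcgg
Sycp3 and Hormad1 each showed 2 E-boxes, at 64 and 43 bases before the start in Sycp3 and at 57 and 20 bases in Hormad1, and Sycp1 showed 1 at 94 bases. The E2F core lay at 95 bases in Hormad1, at 48 bases in Smc1b on the other strand, and at 147 bases in Sycp3, outside the stretch shown. The X-box of Smc1b began at 120 bases.

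The values are the deposited chip signals, a linear intensity that has the same trimmed mean on every array. Differences are given as log2 of the signal plus a pseudocount of 16, with the standard error (SE) of a limma fit over all 20 arrays and 28000 single-gene probe sets. A probe set is said to have risen or fallen where its Benjamini-Hochberg adjusted p over those 28000 was under 0.05. All 9 member probe sets passed the filter on low signals, which asked for a group mean of at least 17.5. Median signals lay between 24.9 and 34.9 across the arrays. The ratio of 3′ to 5′ beta-actin probes, a gauge of RNA integrity that is low in intact RNA, ran from 1.87 to 3.57 and was highest on C57BL/6 12 h replicate 2.

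Spo11 makes the catalytic subunit of the topoisomerase-like enzyme that cuts the DNA to start recombination. In C57BL/6 its signals were 622 and 604 in controls, 543 and 661 at 8 h, 438 and 322 at 10 h, 382 and 235 at 12 h, and 168 and 215 at 24 h. The groups overlapped with the controls at 8 h and lay wholly below them from 10 h on, and the 24 h pair had the lowest mean of all 10 groups. At 24 h Spo11 fell by 1.61 on the log2 scale (SE 0.25, limma adjusted p = 3.3e-04), where 31.0% of all probe sets passed. Median centring of the arrays lowered the median of all probe sets in that comparison from 0.09 to −0.04 and turned the split of passing probe sets from 5019 higher and 3670 lower to 3340 and 4195, while Spo11 fell by 1.73. At 12 h it fell by 0.99 (SE 0.25, limma adjusted p = 0.0187), where 14.6% of all probe sets passed. At 10 h the difference was −0.68 (limma adjusted p = 0.118), where 7.2% passed. The 12 h call ended without C57BL/6 12 h replicate 2, the array with the highest actin ratio (−0.66, limma adjusted p = 0.168), and without either control (limma adjusted p = 0.0884 and 0.0879).

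In AKR/N the Spo11 signals were 330.1 and 333 in controls, 394 and 399.8 at 8 h, 262 and 334 at 10 h, 175 and 251 at 12 h, and 253 and 379.6 at 24 h. The controls of AKR/N were below both C57BL/6 controls, the 8 h pair was above its own controls, the 12 h pair was below them, and the 24 h pair spanned them. No AKR/N time passed the test for Spo11. At 24 h the difference was −0.09 (95% interval −0.63 to 0.45, limma adjusted p = 0.838), where 18.2% of all probe sets passed, and at 12 h it was −0.62 (limma adjusted p = 0.163), where 5.24% passed. The 24 h changes of the strains differed by 1.52 (SE 0.36, limma adjusted p = 0.0619), which missed the threshold, as did all 9 member probe sets in that comparison, where 0.775% of all probe sets passed. That value passed with a pseudocount of 64 (1.33, limma adjusted p = 0.0130) with a variance trend (limma adjusted p = 0.0111), and without either C57BL/6 12 h array (limma adjusted p = 0.0459 and 0.0443).

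Averaged over the 4 heated times, Spo11 fell by 0.83 in C57BL/6 (SE 0.20, limma adjusted p = 0.0128), where 15.9% of all probe sets passed. The call ended without either control array (limma adjusted p = 0.114 and 0.111). The 24 h level was also below the mean of the earlier heated times in C57BL/6, a drop of 1.04 (SE 0.21, limma adjusted p = 0.00283) against 22.3% of probe sets passing. Without C57BL/6 24 h replicate 1 that last value was −0.88 (limma adjusted p = 0.0716).

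**Figure D1:**
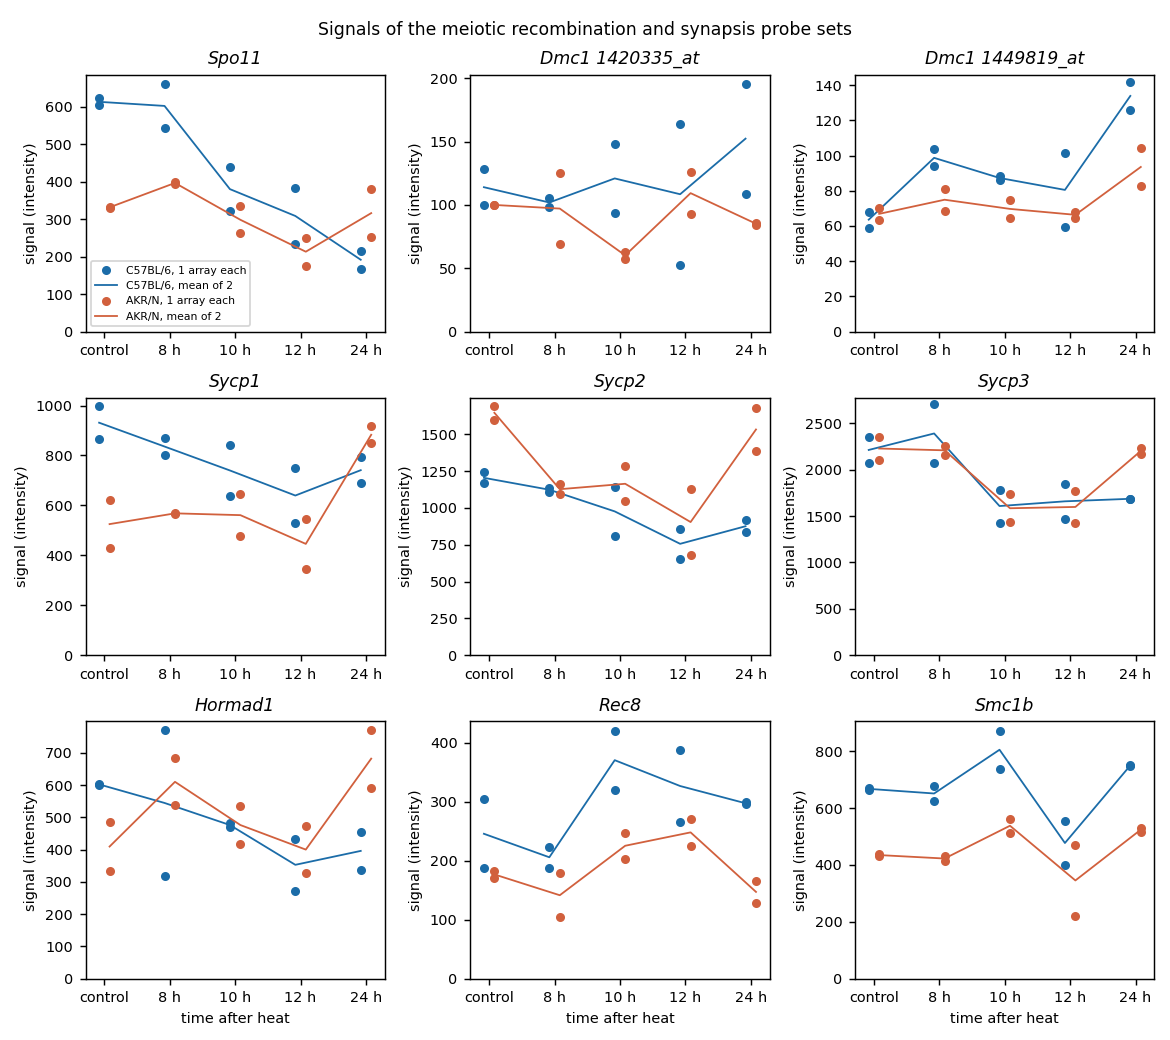
Signal (linear intensity) of each of the 9 probe sets against time after heat, with 1 point for each array and lines through the means of 2 arrays for C57BL/6 and AKR/N. C57BL/6 Spo11 goes from 622 and 604 in controls to 168 and 215 at 24 h, while the AKR/N points for Spo11 stay between 175 and 399.8.

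Dmc1 encodes the meiosis-specific recombinase that coats the resected ends and searches for the homologue. Its 2 probe sets gave different pictures, with a Pearson r of 0.51 between them over the 20 arrays. On 1449819_at the C57BL/6 signals were 59.0 and 68.1 in controls, 93.8 and 104 at 8 h, 88.3 and 86.3 at 10 h, 102 and 59.4 at 12 h, and 126 and 142 at 24 h. Every heated pair except the 12 h pair lay above both controls. The rise at 24 h was 0.91 (SE 0.18, limma adjusted p = 0.00196). The mean over the heated times rose by 0.52 (SE 0.15, limma adjusted p = 0.0281), and the 24 h level was 0.53 above the earlier times (SE 0.15, limma adjusted p = 0.0218). The mean heat value did not pass with the arrays centred on their medians (0.46, limma adjusted p = 0.101), and neither did the value against the earlier times (0.44, limma adjusted p = 0.112). Without either C57BL/6 control the mean heat value also missed the threshold (limma adjusted p = 0.235 and 0.119), as did the value against earlier times without either C57BL/6 24 h array (limma adjusted p = 0.0914 and 0.177).

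In AKR/N the same probe set read 63.5 and 70.3 in controls, 81.3 and 68.5 at 8 h, 74.7 and 64.7 at 10 h, 68.0 and 64.7 at 12 h, and 82.9 and 104 at 24 h. The 24 h pair was again the highest of its strain and lay above the controls, with a difference of 0.40 (95% interval 0.00036 to 0.79, limma adjusted p = 0.154). The difference between the strains' 24 h changes was −0.52 (95% interval −1.08 to 0.04).

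The probe set 1420335_at, the brighter of the Dmc1 pair on average, read 128 and 99.8 in C57BL/6 controls, 98.6 and 105 at 8 h, 148 and 93.5 at 10 h, 164 and 52.6 at 12 h, and 109 and 196 at 24 h. The log2 standard deviation between replicates ranged widely here, from 0.0018 in AKR/N controls to 0.98 at C57BL/6 12 h. Its 24 h difference was 0.33 in C57BL/6 (95% interval −0.48 to 1.14) and −0.20 in AKR/N (95% interval −1.01 to 0.61). The first of these intervals holds the rise seen on the other probe set as well as 0. The AKR/N signals were 99.9 and 100.1 in controls and 86.0 and 84.3 at 24 h, with the heated arrays between 57.7 and 126.

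The synaptonemal complex is built from lateral elements, which hold SYCP2 and SYCP3, and from SYCP1, the transverse filament that bridges the homologues. Sycp1 read 865 and 998 in C57BL/6 controls, 869 and 802 at 8 h, 840.2 and 639 at 10 h, 748 and 531 at 12 h, and 689 and 792 at 24 h. All pairs from 10 h on lay below the controls, and the 24 h difference was −0.32 (95% interval −0.85 to 0.20). In AKR/N it read 428 and 622 in controls, 565 and 570.5 at 8 h, 475 and 646 at 10 h, 347 and 544 at 12 h, and 849 and 916 at 24 h. Here the 24 h pair stood above every other AKR/N array. Sycp1 rose at 24 h in AKR/N by 0.76 (SE 0.24, limma adjusted p = 0.0456). It also rose against the earlier heated times by 0.76 (SE 0.20, limma adjusted p = 0.0165), where 19.8% of all probe sets passed. The first call ended with median centring (limma adjusted p = 0.0865) and with a pseudocount of 1 (limma adjusted p = 0.0665). The same held with no filter (limma adjusted p = 0.0575) and with a fit on the compared groups alone (limma adjusted p = 0.0676). The first value was 0.49 without AKR/N control replicate 1 (limma adjusted p = 0.296). It also missed the threshold without either AKR/N 24 h array (0.81 and 0.70, limma adjusted p = 0.104 and 0.21), and without any of the 8 h arrays of both strains or the 24 h and control arrays of C57BL/6 (limma adjusted p = 0.0561 to 0.0591). The second did not pass without either AKR/N 24 h array (limma adjusted p = 0.0727 and 0.169). The strains' 24 h changes in Sycp1 differed by 1.08 (95% interval 0.34 to 1.82, limma adjusted p = 0.137).

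Sycp2, whose protein scaffolds the lateral element, read 1168 and 1241 in C57BL/6 controls, 1109 and 1138 at 8 h, 1141 and 811 at 10 h, 859.7 and 652 at 12 h, and 917 and 834 at 24 h. In AKR/N it read 1695 and 1598 in controls, 1162 and 1093 at 8 h, 1045 and 1283 at 10 h, 681 and 1127 at 12 h, and 1389.9 and 1676 at 24 h. In C57BL/6 every heated pair lay below the controls. In AKR/N the 8, 10 and 12 h pairs lay below the controls and the 24 h pair overlapped them. At 12 h Sycp2 fell by 0.90 in AKR/N (SE 0.22, limma adjusted p = 0.0352), the only member called in that group. Without AKR/N 12 h replicate 1 the value was −0.54 (limma adjusted p = 0.268), and it did not pass without either control (limma adjusted p = 0.147 and 0.103) or with arrays centred on their medians (limma adjusted p = 0.0713). In C57BL/6 the 12 h difference was −0.67 (limma adjusted p = 0.0595) and the 24 h difference −0.45 (95% interval −0.94 to 0.03, limma adjusted p = 0.147). Without C57BL/6 12 h replicate 1 the 12 h difference was −0.87, which rests on replicate 2 alone, the array with the highest actin ratio. The mean over the heated times was −0.39 in C57BL/6 (limma adjusted p = 0.163) and −0.51 in AKR/N (limma adjusted p = 0.122), where 3.9% of all probe sets passed and none of the members did.

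Sycp3 makes the rod-like core protein of the chromosome axis. It read 2349.8 and 2076 in C57BL/6 controls, 2072 and 2709.6 at 8 h, 1785 and 1430.2 at 10 h, 1846 and 1471 at 12 h, and 1684 and 1688 at 24 h. AKR/N read 2106 and 2351 in controls, 2256 and 2162 at 8 h, 1434 and 1734 at 10 h, 1430.0 and 1766 at 12 h, and 2174 and 2231 at 24 h. Both strains had their 10 h and 12 h pairs below their controls, and at 24 h the C57BL/6 pair was still below while the AKR/N pair lay within its controls. The 24 h difference was −0.39 in C57BL/6 (95% interval −0.77 to −0.0037, limma adjusted p = 0.12) and −0.01 in AKR/N (95% interval −0.40 to 0.37). Sycp3 varied least, with a 1.5-fold range between its lowest and highest group mean.

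Hormad1 encodes a HORMA-domain protein of unsynapsed axes that promotes break formation and leaves once synapsis is complete. Its C57BL/6 signals were 604 and 601 in controls, 319.7 and 770.1 at 8 h, 472 and 481 at 10 h, 433 and 272 at 12 h, and 336 and 456 at 24 h. The 8 h replicates differed by a log2 standard deviation of 0.87, and the later pairs all lay below the controls. The 24 h difference was −0.60 (95% interval −1.34 to 0.14, limma adjusted p = 0.214). AKR/N read 335 and 484 in controls, 537 and 684 at 8 h, 419 and 534 at 10 h, 473 and 327 at 12 h, and 773 and 592 at 24 h, so that the 8 h and 24 h pairs were above both controls. The 24 h difference there was 0.72 (95% interval −0.01 to 1.46, limma adjusted p = 0.162). The strains' 24 h changes differed by 1.33 (95% interval 0.28 to 2.37, limma adjusted p = 0.186).

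Rec8 and Smc1b encode meiosis-specific cohesin subunits, a kleisin and an SMC arm, that hold sister chromatids along the axis. Rec8 read 187 and 304 in C57BL/6 controls, 223 and 188 at 8 h, 320.5 and 420.2 at 10 h, 266 and 387 at 12 h, and 299 and 296 at 24 h. In AKR/N it read 182 and 171 in controls, 178 and 104 at 8 h, 247 and 204 at 10 h, 271 and 225 at 12 h, and 128 and 166 at 24 h. The 10 h pair was above the controls in both strains, the AKR/N 12 h pair as well, and the AKR/N 24 h pair was below. No comparison with controls passed the test for Rec8, with 24 h differences of 0.30 in C57BL/6 (95% interval −0.27 to 0.86) and −0.25 in AKR/N (95% interval −0.82 to 0.32).

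Smc1b read 671 and 664 in C57BL/6 controls, 676 and 626 at 8 h, 872 and 738 at 10 h, 553 and 401 at 12 h, and 749 and 751 at 24 h. In AKR/N it read 437 and 432 in controls, 413 and 431 at 8 h, 514 and 562 at 10 h, 219 and 471 at 12 h, and 531 and 517 at 24 h. Both strains were above their controls at 10 h and 24 h, C57BL/6 was below at 12 h, and AKR/N lay just below at 8 h. None of these differences passed the test. At 12 h they were −0.49 in C57BL/6 (limma adjusted p = 0.206) and −0.41 in AKR/N (limma adjusted p = 0.358). The AKR/N value rests on its replicate 1, with −0.94 without replicate 2 (limma adjusted p = 0.0187) and 0.11 without replicate 1. The C57BL/6 value passed without either AKR/N 12 h array (limma adjusted p = 0.0468 and 0.0474). At 24 h they were 0.16 in C57BL/6 (95% interval −0.37 to 0.70) and 0.26 in AKR/N (95% interval −0.27 to 0.79).

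**Figure D2:**
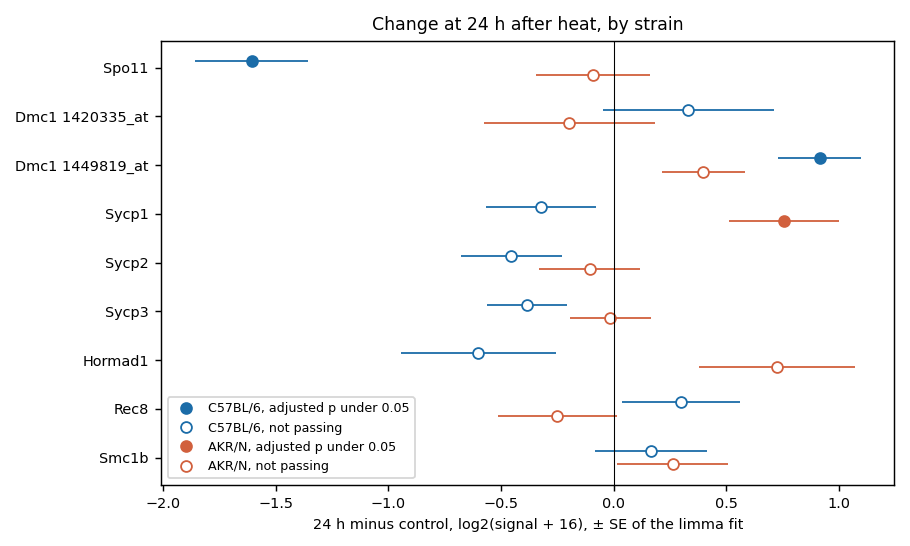
Difference between 24 h and control on the log2(signal + 16) scale for each probe set and strain, with bars of 1 SE of the limma fit and filled points where the adjusted p was under 0.05. Spo11 (−1.61) and Dmc1 1449819_at (0.91) are filled for C57BL/6, and Sycp1 (0.76) for AKR/N.

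Counted over the 9 probe sets, at most 2 members passed at any time. At 8 h 0 of 9 passed in either strain, where 0.0893% of all probe sets passed in C57BL/6 and 0.121% in AKR/N. At 10 h 0 of 9 passed in either strain, where 7.2% of all probe sets passed in C57BL/6 and 3.81% in AKR/N. At 12 h 1 of 9 passed in each strain, Spo11 in C57BL/6 and Sycp2 in AKR/N, where 14.6% and 5.24% of all probe sets passed. At 24 h 2 of 9 passed in C57BL/6 and 1 of 9 in AKR/N, which is no larger a share than that of all probe sets at that time. By position alone, 5 of 9 had both C57BL/6 24 h arrays below both controls (Spo11, Sycp1, Sycp2, Sycp3 and Hormad1), as 28.2% of all probe sets did. In AKR/N, 4 of 9 had both 24 h arrays above both controls (the 1449819_at set of Dmc1, Sycp1, Hormad1 and Smc1b), as 32.2% of all probe sets did. The times of a strain share its 2 control arrays, so the counts are not independent of each other.

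RNA quality and cell markers moved at the same time. Actin ratios were 2.14 and 2.46 in C57BL/6 controls against 2.84 and 2.58 at 24 h, and 2.92 and 2.39 in AKR/N controls against 2.14 and 2.17 at 24 h, so the strains moved in opposite directions. For 12 markers of pachytene and later spermatocytes, the summed signal lay between 29343 and 30798 in C57BL/6 controls and between 25733 and 26662 at 24 h. In AKR/N it lay between 31312 and 31449 in controls and between 25753 and 26166 at 24 h. Of these markers 8 fell and 1, Pgk2, rose in C57BL/6, where 15.6% of all genes tested were lower and 19.8% higher. In AKR/N 6 fell and 0 rose, where 9.66% of all genes tested were lower and 10.8% higher. Hspa2, the chaperone of the synaptonemal complex, fell in both strains (−1.11 and −0.84). The median change of the 12 at 24 h was −0.90 in C57BL/6 and −0.55 in AKR/N, where the sums weigh the brightest markers most. The 9 Sertoli cell markers that passed the filter summed to 5404 and 5589 in the C57BL/6 controls and to 9268 and 9651 at 24 h. In AKR/N their sums were 5998 and 6316 in controls and 8817 and 8899.9 at 24 h. The brightest Sertoli cell marker had a mean signal of 5399, so these sums weigh that marker most. Of the 9 Sertoli cell markers, 5 rose and 0 fell at 24 h in C57BL/6 (median 0.44). In AKR/N 4 rose and 0 fell (median 0.48). The 9 spermatogonial markers summed to 767 and 781 in C57BL/6 controls and 927 and 1057 at 24 h, and to 824 and 923 in AKR/N controls and 1137 and 1165 at 24 h. Of these only Stra8 rose in C57BL/6 (median of the 9 markers 0.12) and only Stra8 and Zbtb16 in AKR/N (median 0.26), and none fell. Stra8 is also counted among the regulators of meiotic entry below. Round spermatid markers, 11 in number, summed to 29491 and 29513 in C57BL/6 controls and 33635 and 35195 at 24 h. In AKR/N their sums were 26172 and 28367 in controls and 27771 and 28349 at 24 h. Of the round spermatid markers, 3 rose and 3 fell at 24 h in C57BL/6 (median 0.17), and 1 rose and 0 fell in AKR/N (median 0.10). Amh, a Sertoli gene of the immature testis, was the only listed marker of these types on the chip that did not pass the filter. The 5 Leydig cell markers summed to 1791 and 2032 in C57BL/6 controls and 1945 and 2236 at 24 h. In AKR/N they summed to 3918 and 4119.7 in controls and 2326 and 2419.8 at 24 h. Of the Leydig cell markers, 2 rose and 2 fell at 24 h in C57BL/6 (median −0.07), and 0 rose and 2 fell in AKR/N (median −0.45). The 7 macrophage and leukocyte markers summed to 554 and 578 in C57BL/6 controls and 853 and 883 at 24 h, and to 780.2 and 934 in AKR/N controls and 1144 and 1254 at 24 h. The part of RNA quality and of cell makeup in the members' values was not tested.

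Averaged over the 5 conditions, the strains differed in 4 of 9 member probe sets, where 22.5% of all probe sets passed. Rec8 had an AKR/N minus C57BL/6 difference of −0.58 (SE 0.12, limma adjusted p = 0.00239), with AKR/N below in 5 of 5 conditions and without overlap in 4. Smc1b had a difference of −0.56 (SE 0.11, limma adjusted p = 0.00205), below in 5 of 5 conditions and again without overlap in 4. Sycp1 had −0.41 (SE 0.11, limma adjusted p = 0.0146), below in 4 of 5 conditions and above at 24 h. Sycp2 went the other way, with 0.35 (SE 0.10, limma adjusted p = 0.0229) and AKR/N above in 5 of 5 conditions, without overlap in 2. The Sycp2 value did not pass with median centring (0.32, limma adjusted p = 0.0651) or without AKR/N 10 h replicate 2, AKR/N 24 h replicate 2 or C57BL/6 10 h replicate 2 (0.30 to 0.32, limma adjusted p = 0.0508 to 0.0516). Spo11 had −0.32 (limma adjusted p = 0.0587). Dmc1 had −0.24 on 1449819_at (limma adjusted p = 0.0509) and −0.32 on 1420335_at (limma adjusted p = 0.205). Without C57BL/6 12 h replicate 2 these 3 values were −0.38, −0.30 and −0.46 and passed (limma adjusted p = 0.0189, 0.00492 and 0.0227). Sycp3 (0.04, 95% interval −0.13 to 0.22) and Hormad1 (0.13, 95% interval −0.20 to 0.46) did not pass. Of the 12 markers of pachytene and later spermatocytes, 6 were higher in AKR/N and 1, Adam3, was lower. Over all genes tested 13.6% were higher and 11.9% lower. The part of this marker difference in the members' values was not tested. With 1 probe set for all but Dmc1, a strain difference in transcript level cannot be told apart from one in how the probes match each strain's sequence.

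In untreated testes alone 0 of 9 members passed between the strains, where 4.78% of all probe sets passed. Both AKR/N controls were below both C57BL/6 controls for 5 of 9 probe sets (Spo11, Sycp1, Hormad1, Rec8 and Smc1b), as 21.1% of all probe sets were. The largest of these differences were −0.86 for Spo11 (limma adjusted p = 0.0731), −0.83 for Sycp1 (limma adjusted p = 0.0726) and −0.60 for Smc1b (limma adjusted p = 0.209). Spo11 and Sycp1 passed with a pseudocount of 64 (limma adjusted p = 0.0190 and 0.0215). Unadjusted p-values under 0.05 were found for 5074 of the 28000 probe sets, of which 1339 passed after adjustment.

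Spo11, Sycp1 and Hormad1, lower in AKR/N among the controls, had higher signals there at 24 h, but none of these 24 h differences passed the test. The comparison of the strains at 24 h was added after these values had been seen. AKR/N lay above C57BL/6 without overlap for 5 of 9 probe sets (Spo11, Sycp1, Sycp2, Sycp3 and Hormad1), as 27.4% of all probe sets did. Of these Sycp2 passed, with 0.79 (SE 0.22, limma adjusted p = 0.0372), and the others did not: 0.66 for Spo11 (limma adjusted p = 0.117), 0.76 for Hormad1 (limma adjusted p = 0.186), 0.38 for Sycp3 (limma adjusted p = 0.203) and 0.25 for Sycp1 (limma adjusted p = 0.586). Rec8 passed in the other direction, with −0.95 (SE 0.26, limma adjusted p = 0.0335). So 2 of 9 passed, against 10.8% of all probe sets. Both calls ended on leaving out any of the 4 arrays at 24 h, where Sycp2 ranged from 0.66 to 0.93 and Rec8 from −1.12 to −0.78, and both missed the threshold with a pseudocount of 1 (limma adjusted p = 0.0568 and 0.0525). Sycp2 also missed it with median centring (limma adjusted p = 0.0613) and without any of the 8 h C57BL/6, 8 h AKR/N and C57BL/6 control arrays (limma adjusted p = 0.0504 to 0.0509).

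**Figure D3:**
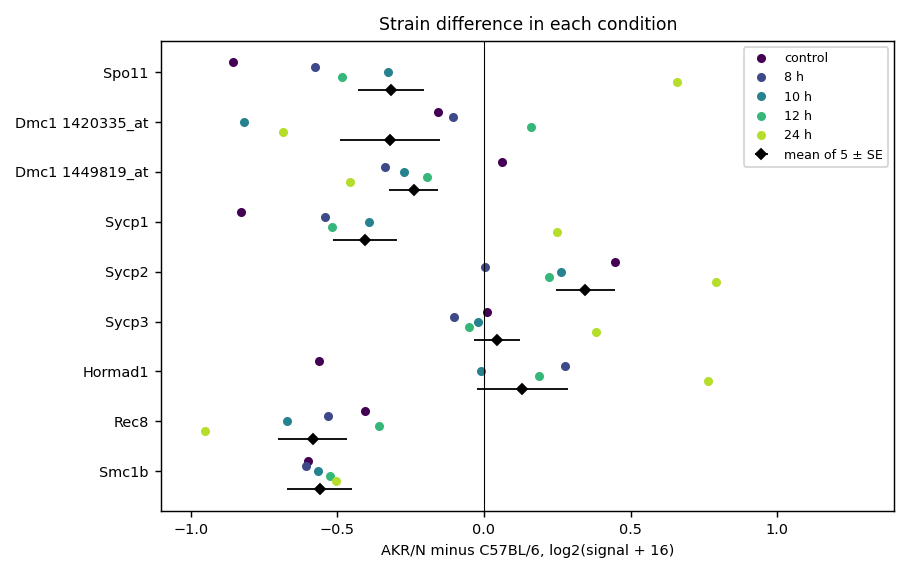
AKR/N minus C57BL/6 on the log2(signal + 16) scale for each probe set, with a coloured point for each of the 5 conditions and a black diamond with 1 SE for their mean. Points for Rec8 and Smc1b lie left of 0 in 5 of 5 conditions and those for Sycp2 right of it, while the 24 h points of Spo11 (0.66) and Sycp1 (0.25) lie on the opposite side of 0 from their other points.

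The spread of the members over the 10 groups differed between probe sets. The fold between the lowest and highest group mean was 3.05 for Spo11, 2.51 for Rec8, 2.42 for Smc1b, 2.17 for Sycp2, 2.14 and 1.88 for the Dmc1 pair, 2.10 for Sycp1 and 1.92 for Hormad1. When the 10 group means of a probe set were put in order, at most 2 of the 9 gaps between neighbours exceeded the sum of their standard deviations (2 for Smc1b, 0 for Sycp1 and Hormad1, 1 for each other probe set). Neighbours in the order therefore mostly do not differ beyond their spread. Putting 10 means in order keeps neighbours close, so this count does not bear on groups farther apart. Replicates were farthest apart at 12 h, where the median log2 standard deviation of the members was 0.36 in C57BL/6 and 0.34 in AKR/N, against 0.12 and 0.06 in the controls.

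Across the 20 arrays, which include shifts between strains and times and share their scaling, some members moved alike and others in opposite ways. Pearson's r was 0.76 between Sycp1 and Smc1b and 0.70 between Sycp2 and Sycp3. It was −0.71 between Sycp3 and Rec8 and −0.66 between Sycp2 and Rec8. With each group's mean subtracted, r in these pairs was 0.75, 0.72, −0.61 and −0.32, in that order. The 2 arrays of a group then deviate by equal and opposite amounts. Each such r therefore rests on 10 differences between replicates, of which the widest weigh most. Some pairs were close only between replicates of a group. Sycp2 with Smc1b had 0.12 over all arrays and 0.86 within groups, and Spo11 with Dmc1 on 1420335_at had 0.13 and 0.71. Among the leading probe sets of all genes (for each gene the one with the highest mean), the pattern most like that of Spo11 was that of Spdya, with r = 0.95. Spdya is the cyclin-like partner of CDK2 at meiotic telomeres. Next came Cdadc1 and Dtymk, a thymidylate kinase, each with r = 0.93. For Dmc1 on 1420335_at they were Lmo2 and Dhps (0.73 each) and Ift172 (0.72). The closest to Sycp1 were 4930564C03Rik (0.85), 9330159M07Rik (0.84) and Cdkl2 (0.83), and to Sycp2 Rasa1 (0.91), Lcorl and Gm4274 (0.90 each). Sycp3 was closest to Sarnp (0.93), Itgb3bp (0.92) and Gt(ROSA)26Sor (0.91), and Hormad1 to Gtf2e1 (0.80), Dimt1 (0.77) and Acat1 (0.75). Rec8 was closest to Mdm2 (0.91), the ubiquitin ligase of p53, Ica1 (0.90) and Nrm (0.89), and Smc1b to Ahctf1 and Plxnb2 (0.87 each) and Rev1 (0.85). These are the highest values among the 15762 genes tested, apart from the members. With each group's mean subtracted, r was 0.66 for Rec8 with Mdm2 and 0.89 for Spo11 with Spdya. For Dmc1 it was 0.75, 0.73 and 0.77 with Lmo2, Dhps and Ift172, so that likeness was also present between replicates of a group.

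**Figure D4:**
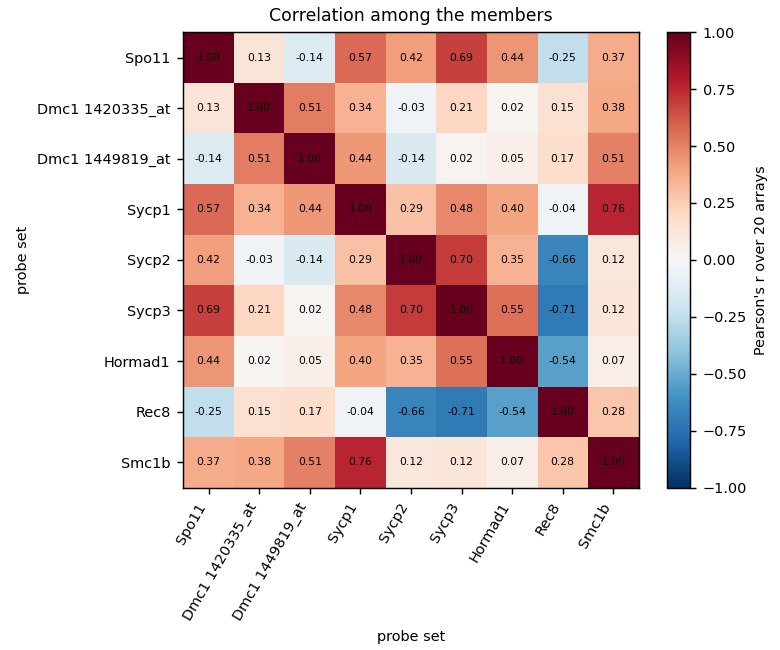
Pearson's r over the 20 arrays between each pair of the 9 probe sets, on a colour scale from −1 to 1 with the value written in each square. Sycp1 with Smc1b (0.76) and Sycp2 with Sycp3 (0.70) are in red, and Rec8 is in blue against Sycp3 (−0.71) and Sycp2 (−0.66).

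The other genes of these processes are described by the leading probe set of each at 24 h, at which 19.8% of the 15762 genes tested were higher and 15.6% lower in C57BL/6, with a median of 0.08, and 10.8% were higher and 9.66% lower in AKR/N, with a median of −0.01. Among 14 tested genes of the synaptonemal complex and axis, 5 rose and 2 fell in C57BL/6 (median −0.06) and 2 rose and 2 fell in AKR/N (median 0.27). 4930447C04Rik, also called Six6os1, a central element gene, rose by 1.07 in C57BL/6 (limma adjusted p = 6.0e-04) and 0.81 in AKR/N (limma adjusted p = 0.0090). Scml2, a germline polycomb gene, rose by 0.97 and 0.67. Smc1a, the general cohesin arm, rose by 1.02 in C57BL/6 (0.07 to 0.62 on its other probe sets) and had 0.43 in AKR/N (limma adjusted p = 0.064), where its other probe sets had the opposite sign (−0.24 to −0.19). Stag3, the meiotic cohesin subunit that binds REC8, fell by 0.69 in C57BL/6 (limma adjusted p = 0.0013) and by 0.48 in AKR/N (limma adjusted p = 0.023).

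Of 6 tested genes of break formation, 1 rose and 1 fell in C57BL/6 (median −0.02) and 1 rose in AKR/N (median −0.18). Hells, a chromatin remodeller that works with PRDM9, rose by 0.80 and 0.60. Cxxc1, a partner of PRDM9, fell by 0.70 in C57BL/6 and had −0.49 in AKR/N (limma adjusted p = 0.065). Prdm9, which marks the sites of breaks, had 0.41 in C57BL/6 (limma adjusted p = 0.19) and −0.35 in AKR/N (limma adjusted p = 0.30). Ankrd31, needed for breaks on the sex chromosomes, had −0.15 (limma adjusted p = 0.79) and 0.84 (limma adjusted p = 0.096).

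Of 20 tested genes of strand exchange and repair, 1 rose and 8 fell in C57BL/6 (median −0.27), and 3 rose and 2 fell in AKR/N (median −0.17). Rpa1, the large subunit of the single-strand binding protein, fell by 1.28 in C57BL/6 (limma adjusted p = 1.1e-04) and by 0.67 in AKR/N (limma adjusted p = 0.017). Fignl1, an ATPase that acts in homologous recombination, fell by 1.01 in C57BL/6 and had −0.22 in AKR/N (limma adjusted p = 0.41). 4930432K21Rik, also called Brme1, a partner of the BRCA2 recruiter HSF2BP, fell by 0.89 and 0.59. Atm, the kinase that senses breaks, rose by 0.92 and 0.70. Among the 8 that fell in C57BL/6 were also Psmc3ip, which helps DMC1 invade, and Hsf2bp, Mre11a and Atr.

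Of 9 tested genes of crossover formation, 2 rose and 2 fell in C57BL/6 (median 0.09) and 3 rose in AKR/N (median 0.16). Tex11 and Tex15, X-linked and autosomal genes needed for repair of meiotic breaks, rose by 0.61 and 0.68 in C57BL/6 and by 0.87 and 0.59 in AKR/N. Mlh3, a crossover nuclease subunit, fell by 0.52 in C57BL/6 and had −0.20 in AKR/N (limma adjusted p = 0.46). Cdk2, the kinase at crossover sites and telomeres, fell by 0.56 and had −0.09 (limma adjusted p = 0.73). Of 15 tested genes of pairing, telomere attachment and surveillance, 2 rose and 5 fell in C57BL/6 (median −0.03) and 2 rose in AKR/N (median 0.04). The telomere attachment genes Majin and Terb1 fell by 0.85 each in C57BL/6 and had −0.06 (limma adjusted p = 0.82) and −0.52 (limma adjusted p = 0.071) in AKR/N. Spdya fell by 1.12 in C57BL/6 (limma adjusted p = 4.6e-04) and had 0.03 in AKR/N (limma adjusted p = 0.94). Mdc1, which spreads the damage mark over the sex chromosomes, fell by 0.77 and had −0.41 (limma adjusted p = 0.067).

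Of 14 tested regulators of meiotic entry and prophase, 5 rose and 5 fell in C57BL/6 (median −0.20), and 4 rose and 3 fell in AKR/N (median 0.04). Stra8, the retinoic acid target that starts meiosis, rose by 1.43 in C57BL/6 (limma adjusted p = 1.9e-05) and 0.81 in AKR/N (limma adjusted p = 0.0031). Taf7l, a germ cell transcription factor subunit, rose by 0.83 and 1.11. Ccna1, the cyclin needed to leave prophase, fell by 1.82 and 1.54, and L3mbtl2, a member of the E2F6 and MGA repressor complex, fell by 1.14 and 0.88. In the comparison of the strains' 24 h changes, 0 of the tested genes of these 6 groups passed with limma. Over all 28000 probe sets 217 passed and 4763 had an unadjusted p under 0.05. Of the 12 markers of pachytene and later spermatocytes 2 passed, Piwil1 and Nek2. Both had the higher 24 h change in AKR/N, where 0.444% of all genes tested were higher and 0.393% lower.

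**Figure D5:**
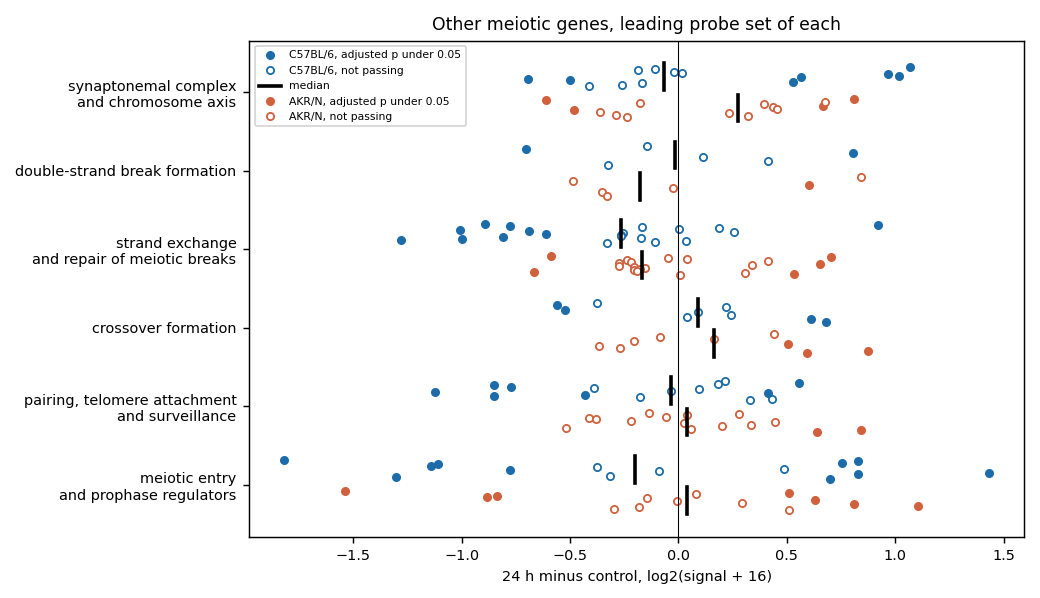
Difference between 24 h and control on the log2(signal + 16) scale for the leading probe set of each tested gene in 6 groups of meiotic genes, by strain, filled where the adjusted p was under 0.05, with a black bar at the median. The strand exchange group has 8 filled points left of 0 in C57BL/6 and 2 in AKR/N, and the regulators reach from −1.82 (Ccna1) to 1.43 (Stra8) in C57BL/6.

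Some of these genes, a minority of those tested, also differed between the strains when averaged over the 5 conditions, where 13.6% of all genes tested were higher and 11.9% lower in AKR/N. In the synaptonemal complex and axis group 1 of 14 was higher (Stag3, 0.21) and 1 lower (Smc3, −0.35). Among the break formation genes 0 of 6 were higher and 2 lower, both partners of SPO11 in cutting: Mei1 (−0.31, limma adjusted p = 0.033) and Rec114 (−0.28, limma adjusted p = 0.045). Of 20 strand exchange genes 5 were higher and 2 lower. Meiob, a single-strand binding protein needed for meiotic repair, was the highest of them with 0.75 (SE 0.08, limma adjusted p = 6.9e-06). The interacting partners Hsf2bp and 4930432K21Rik were both lower, with −0.37 (limma adjusted p = 2.1e-04) and −0.40 (limma adjusted p = 9.4e-04). Of 9 crossover genes 3 were higher and 1 lower. Msh4 and Msh5, whose proteins form a heterodimer, went in opposite directions, with −0.33 (limma adjusted p = 0.0047) and 0.35 (limma adjusted p = 0.0032). Of 15 pairing and telomere genes 2 were higher (Terb1, 0.42, and Mdc1, 0.48) and 2 lower (Spdya, −0.43, and Trip13, which removes HORMAD proteins from axes, −0.35). Of 14 regulators 4 were higher and 4 lower. E2f6, a repressor that reads the E2F core, was higher by 0.64 (SE 0.12, limma adjusted p = 0.0014). Of its complex partners, L3mbtl2 was also higher and Mga was lower, the latter with −0.27 (limma adjusted p = 0.044).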

How the data were processed

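The members, the gene lists and the rules were chosen with earlier results of these data known. The authors deposited 1 intensity per probe set and array, read as a linear scale from the values. Its trimmed mean, without the top and bottom 2%, was 125.001 on all 20 arrays. How probes were summarised and to which target arrays were scaled is not given in the sources used here. Such scaling assumes an equal total RNA signal per array. Per the labels' protocols, RNA was extracted with Trizol and labelled after one-cycle 3′ amplification, so the probes near the 3′ end of a transcript carry the signal.

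Probe sets were named through the platform annotation: of 45101, 34945 had 1 gene, 932 several, 9160 none and 64 were controls, and 34741 of the named ones matched RefSeq by Entrez ID. Values were taken as log2(signal + 16). A probe set was kept where its highest group mean reached the 40th percentile. A limma model of 10 group means was fitted with moderated variances (prior degrees of freedom 3.84, residual 10), with Benjamini-Hochberg adjustment over 28000 probe sets, in limma 3.58.1 under R 4.3.3. The fit was tested on simulated data. A gene in a list is given by its leading probe set, and up to 4 genes per list are named by smallest adjusted p in the mean heat or 24 h comparisons. Genes named beyond these, as members of a count or in the strain comparison over 5 conditions, were chosen after their values were seen. The comparison of the strains at 24 h was added after the values were seen. A wrong alias for Spo16 was dropped, so that gene is not analysed here. The alternatives were other pseudocounts, filters, centring, quantile normalization, 1 probe set per gene, a variance trend, the compared groups alone, a replicate block and leaving out each array.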

Additional observations from a re-analysis of the deposited data

How the results depend on the processing

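No member value that passed changed its sign under any alternative run. Of 1424 member values under other settings, 1369 stayed on their side of the threshold, 18 no longer passed and 37 newly passed. Of 2880 values with 1 array left out the numbers were 2810, 43 and 27, with a lone array taken to vary like the other groups. In C57BL/6 at 24 h, Spo11 and Dmc1 on 1449819_at passed in all of these, the latter wherever it was tested, since the fit on 1 probe set per gene held only the other Dmc1 probe set. Leaving out the 12 h arrays, an alternative chosen after seeing the data, moved 2 of 45 values over the threshold, the strain differences of Dmc1 over 5 conditions (−0.44 and −0.25, limma adjusted p = 0.0410 and 0.0268). The replicate numbers showed no general pairing of samples. The correlation of deviations of same-numbered arrays between 2 groups had a median of −0.00 over 45 pairs of groups. It ranged from −0.24 to 0.25, with 3 pairs over 0.1, and such a median cannot exclude pairing in some groups. With the replicate number as a block, 8413 probe sets passed at 24 h in C57BL/6 in place of 8689, and no count of members passing changed. With 2 arrays a group, the spread between arrays limits the precision. The cause of the following changes was not tested.

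With median centring, members passing numbered 1 (from 2) for mean heat in C57BL/6, 0 (from 1) for 24 h in AKR/N, 0 (from 1) for 12 h in AKR/N, 1 (from 2) for 24 h against earlier times in C57BL/6 and 1 (from 2) for the strains at 24 h. Median centring gave a total over all probe sets of 644 (from 1093) for mean heat in AKR/N, 966 (from 1466) for 12 h in AKR/N, 1238 (from 2015) for 10 h in C57BL/6, 652 (from 1068) for 10 h in AKR/N and 59 (from 217) for the difference of the 24 h changes. With quantile normalization, members passing numbered 1 (from 2) for mean heat in C57BL/6, 1 (from 2) for 24 h against earlier times in C57BL/6 and 2 (from 1) for 24 h against earlier times in AKR/N. With 1 probe set per gene, members passing numbered 1 (from 2) for mean heat in C57BL/6, 1 (from 2) for 24 h in C57BL/6, 2 (from 1) for 12 h in C57BL/6, 1 (from 2) for 24 h against earlier times in C57BL/6, 2 (from 1) for 24 h against earlier times in AKR/N and 1 (from 0) for the difference of the 24 h changes. 1 probe set per gene gave a total over all probe sets of 677 (from 1093) for mean heat in AKR/N, 414 (from 1068) for 10 h in AKR/N, 14 (from 25) for 8 h in C57BL/6 and 6 (from 34) for 8 h in AKR/N. With a fit on the compared groups alone, members passing numbered 1 (from 2) for mean heat in C57BL/6, 4 (from 2) for 24 h in C57BL/6, 0 (from 1) for 24 h in AKR/N, 0 (from 1) for 12 h in C57BL/6, 0 (from 1) for 12 h in AKR/N, 1 (from 2) for 24 h against earlier times in C57BL/6 and 1 (from 0) for the strains unheated. A fit on the compared groups alone gave a total over all probe sets of 361 (from 1093) for mean heat in AKR/N, 2869 (from 5106) for 24 h in AKR/N, 9 (from 4100) for 12 h in C57BL/6, 21 (from 1466) for 12 h in AKR/N, 76 (from 2015) for 10 h in C57BL/6, 4 (from 1068) for 10 h in AKR/N, 15 (from 25) for 8 h in C57BL/6, 0 (from 34) for 8 h in AKR/N, 598 (from 1339) for the strains unheated and 1 (from 217) for the difference of the 24 h changes. With a pseudocount of 64, members passing numbered 1 (from 0) for mean heat in AKR/N, 2 (from 1) for 12 h in C57BL/6, 1 (from 0) for 10 h in C57BL/6, 2 (from 1) for 24 h against earlier times in AKR/N, 2 (from 0) for the strains unheated and 1 (from 0) for the difference of the 24 h changes. A pseudocount of 64 gave a total over all probe sets of 1879 (from 1093) for mean heat in AKR/N, 2417 (from 1466) for 12 h in AKR/N, 1707 (from 1068) for 10 h in AKR/N, 95 (from 34) for 8 h in AKR/N and 903 (from 217) for the difference of the 24 h changes. With a filter at the 60th percentile, members passing numbered 2 (from 1) for 12 h in C57BL/6, 2 (from 1) for 24 h against earlier times in AKR/N, 2 (from 0) for the strains unheated and 1 (from 0) for the difference of the 24 h changes. A filter at the 60th percentile gave a total over all probe sets of 1842 (from 1093) for mean heat in AKR/N, 2332 (from 1466) for 12 h in AKR/N, 89 (from 34) for 8 h in AKR/N and 662 (from 217) for the difference of the 24 h changes. With a variance trend, members passing numbered 1 (from 0) for mean heat in AKR/N, 3 (from 1) for 12 h in C57BL/6, 2 (from 1) for 12 h in AKR/N, 1 (from 0) for 10 h in C57BL/6, 1 (from 0) for 10 h in AKR/N, 2 (from 1) for 24 h against earlier times in AKR/N, 2 (from 0) for the strains unheated and 2 (from 0) for the difference of the 24 h changes. A variance trend gave a total over all probe sets of 1924 (from 1093) for mean heat in AKR/N, 2361 (from 1466) for 12 h in AKR/N, 1805 (from 1068) for 10 h in AKR/N, 53 (from 25) for 8 h in C57BL/6, 114 (from 34) for 8 h in AKR/N and 972 (from 217) for the difference of the 24 h changes. With a pseudocount of 1, members passing numbered 0 (from 1) for 24 h in AKR/N, 0 (from 1) for 12 h in AKR/N and 0 (from 2) for the strains at 24 h. A pseudocount of 1 gave a total over all probe sets of 126 (from 217) for the difference of the 24 h changes. With no filter, members passing numbered 0 (from 1) for 24 h in AKR/N. No filter gave a total over all probe sets of 20 (from 34) for 8 h in AKR/N. With 1 array left out, the members passing ranged from 0 to 2 for mean heat in C57BL/6, 0 to 1 for mean heat in AKR/N, 0 to 1 for 24 h in AKR/N, 0 to 3 for 12 h in C57BL/6, 0 to 2 for 12 h in AKR/N, 0 to 2 for 24 h against earlier times in C57BL/6, 0 to 3 for 24 h against earlier times in AKR/N, 0 to 1 for the strains unheated, 3 to 7 for the strains over 5 conditions, 0 to 1 for the difference of the 24 h changes and 0 to 2 for the strains at 24 h. All probe sets passing then ranged from 985 to 4660 for mean heat in C57BL/6, 57 to 1338 for mean heat in AKR/N, 5480 to 9032 for 24 h in C57BL/6, 1102 to 5529 for 24 h in AKR/N, 1418 to 4151 for 12 h in C57BL/6, 213 to 1743 for 12 h in AKR/N and 296 to 2345 for 10 h in C57BL/6. They ranged from 146 to 1122 for 10 h in AKR/N, 8 to 31 for 8 h in C57BL/6, 1 to 41 for 8 h in AKR/N, 2123 to 6483 for 24 h against earlier times in C57BL/6, 892 to 6015 for 24 h against earlier times in AKR/N, 577 to 1453 for the strains unheated, 2 to 293 for the difference of the 24 h changes and 1234 to 3282 for the strains at 24 h.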
